A study of Mus musculus with 51 samples.

Results

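The change between 2 h and 4 h was followed in the response of wild-type alveolar macrophages to the higher dose of Aspergillus fumigatus conidia, the airborne spores of a mould. The comparison rests on 16 of the 51 arrays of the series, chosen by their titles: C57Bl/6 mice (WT) 2 h after e7 conidia, 2 h after mock treatment, 4 h after e7 conidia and 4 h after mock treatment, with 4 arrays in each group. Doses are written e6 and e7 in the titles, replicates are called biological, and the labels state neither the age of the mice nor how many mice stood behind an array. Where other groups are used, they are the WT arrays with e6 conidia (4 per time) and the arrays of gp91phox-/- mice (KO, without the Cybb protein that anchors the NADPH oxidase of phagocytes in the membrane) with e7 conidia or mock (3 per group and time). Conidia were put into the lungs of living mice, and RNA was taken from macrophages collected from the lungs. For the 4 h mock arrays the treatment field speaks of conidia although the title says mock, and for the 2 h e7 arrays the source name speaks of untreated control cells. Titles were followed in both cases. The stated aim of the study was to compare these macrophages between normal hosts and hosts prone to invasive aspergillosis. Nothing in the labels says whether arrays of a group came from separate mice or pools. The p-values rest on the spread between arrays within groups, pooled over all 15 groups of the series and not over these 16 arrays alone. That pooled spread need not match the spread of the 4 h e7 arrays.

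Alveolar macrophages are the resident phagocytes of the air spaces and take up most inhaled spores. Spores swell and expose cell wall sugars, which surface receptors such as Dectin-1 read, and the signal runs through kinases to NF-kB, AP-1 and related factors. A typical inflammatory response has an early wave of transcription factors and chemokines, feedback inhibitors that follow, and slower changes in metabolism, RNA processing and cell division. RNA-binding proteins set how long many of these transcripts last.

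Not all arrays of a group lay together. On the first principal component of the 16 arrays, which held 50.4% of the variance, the 4 h e7 arrays 1 to 4 scored -20.8, -63.4, -93.6 and 12.2, against 10 to 18.7 for the 4 h mock arrays. Arrays 2 and 3 thus lay farthest from mock and array 4 lay among the mock arrays. Control transcripts are probed near both ends, and the log2 of their 3' over 5' signal, which grows as RNA or its copies get shorter, was 2.09 to 4.85 on the 2 h e7 arrays against 0.93 to 1.47 on the 2 h mock arrays, and 1.26 to 3.83 on the 4 h e7 arrays against 1.19 to 2.34 on the 4 h mock arrays. The summed signal of 20 neutrophil markers was 15764 on 4 h e7 array 3 and 49246 on 4 h mock array 3, and lay between 2177 and 3554 on the other 14 arrays. The 22 measured markers of alveolar macrophages were high throughout: their mean log2 signal was 11.5 to 12.15, and at most 1 of them fell under a signal of 50 on any array. At 2 h their summed signal was nevertheless lower with e7, at 131719 to 139246 against 140023 to 177084 with mock. At 4 h it was 137811 to 147022 with e7 against 143500 to 158687 with mock. Cybb, the gene disrupted in KO mice, read 10.59 to 12.12 on the 30 WT arrays and 6.77 to 9.06 on the 21 KO arrays. In bulk samples such as these, fewer cells of a type and less RNA per cell cannot be told apart.

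With all arrays, more genes were called at 4 h than at 2 h, and without 4 h e7 arrays 2 and 3 fewer were. Of 12393 genes, 127 were called higher (1.02%) and 91 lower (0.734%) with e7 than with mock at 2 h, 218 in all (1.76%), and 757 (6.11%) were higher and 1415 (11.4%) lower at 4 h, 2172 in all (17.5%). With those 2 arrays left out, 241 genes were higher and 238 lower at 2 h, against 63 higher and 63 lower at 4 h. The 4 h e7 group then holds only arrays 1 and 4, while the 2 h groups keep all their arrays. Here and below, a call lost in that fit can come from fewer arrays and does not show that a difference is absent. A gene was called when the adjusted p of limma, over all 22626 tested probe sets, was under 0.05. The contrast of both differences, the response at 4 h minus the response at 2 h, was called in 394 genes (3.18%), with 133 (1.07%) positive and 261 (2.11%) negative. Between the e7 arrays alone, 4 h minus 2 h, 1976 genes were called (15.9%), with 599 (4.83%) higher and 1377 (11.1%) lower at 4 h. Between the mock arrays alone, 4 h minus 2 h, limma called 0 genes, and 1003 probe sets had an unadjusted p under 0.05. The spread behind these calls was pooled over all 15 groups of the series. With the 16 arrays alone, 0 probe sets were called in the contrast, and without 4 h e7 arrays 2 and 3 the contrast called 48 genes in place of 394. Of the 394 genes, 31 were also called in the same direction without those arrays. All 394 kept their sign, but both fits share all other arrays and the genes were chosen in them, so this is no separate support.

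The 2321 genes called at 2 h or at 4 h were sorted by the size of the change at each time. Sustained genes had differences from mock of the same sign at both times, with the smaller difference at least 0.5 of the larger, whether or not both were called. The rest were transient when the difference was larger at 2 h and late when it was larger at 4 h. This gave 126 transient genes (75 higher and 51 lower with e7), 554 sustained genes (236 higher and 318 lower) and 1641 late genes (534 higher and 1107 lower). Of the sustained genes, 35 of the 236 higher and 27 of the 318 lower were called at both times. The others were called at 1 time only, and at 4 h 219 of the 236 and 305 of the 318 were called. The contrast itself was called in 37 of the transient genes, in 0 of the sustained genes and in 308 of the late genes. A further 49 genes were called in the contrast and at neither time alone. The boundary is one of size: 95 genes had a ratio between 0.45 and 0.5 and 98 between 0.5 and 0.55. Without 4 h e7 arrays 2 and 3 the same rule sorted 585 genes, of which 343 were transient, 139 sustained and 103 late. Of the 2321 genes, 423 were sorted in both settings, and the rest were not sorted without those arrays. Among the 423, 117 of 123 transient, 112 of 189 sustained and 91 of 111 late genes stayed in their class. The 2 h differences are the same in both settings and the 4 h differences share arrays, so this is no separate support.

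**Figure D1:**
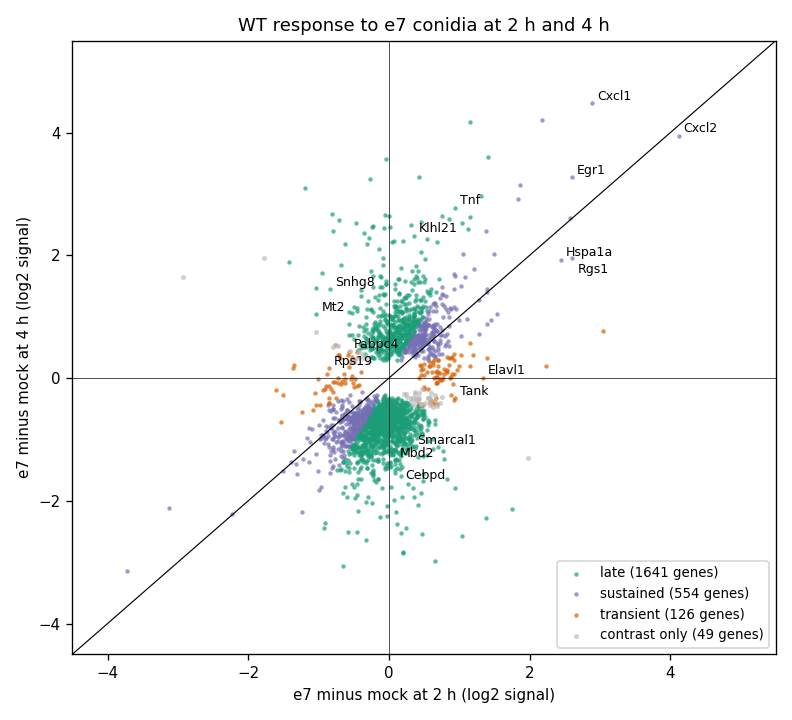
The log2 difference between e7 and mock at 2 h (horizontal) and at 4 h (vertical) for each sorted gene, 1 point per gene, coloured by class, with grey for the 49 genes called in the contrast alone. The diagonal marks equal differences at both times. By the class rule each of the 1641 late genes lies closer to 0 at 2 h than at 4 h, and each of the 126 transient genes closer to 0 at 4 h than at 2 h.

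The classes were even over the 2 h arrays and uneven over the 4 h arrays. The median of the transient genes that were higher with e7 lay 0.64 to 0.84 above the mock mean on the 4 arrays at 2 h, and between -0.04 and 0.14 on the 4 arrays at 4 h. The median of the late genes that were higher lay between -0.04 and 0.21 at 2 h, and at 0.78, 1.07, 1.22 and 0.21 on 4 h e7 arrays 1 to 4. For late genes that were lower the 4 h values were -0.62, -1.04, -1.27 and -0.17. Array 4 therefore carried about the 2 h level of the late class, and arrays 2 and 3 its largest values. The classes were formed from these same values, so the medians describe them and test nothing.

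**Figure D2:**
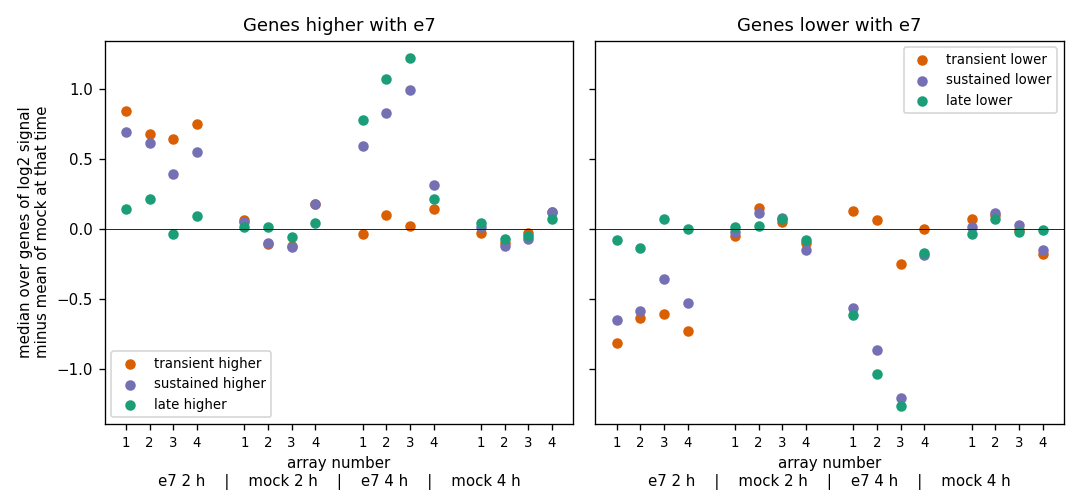
The median log2 signal of each class on each of the 16 arrays, relative to the mean of the mock arrays of the same time, with genes higher with e7 at left and lower with e7 at right. Each point is 1 array. Late and sustained genes stand farthest from 0 on 4 h e7 arrays 2 and 3 and close to 0 on array 4, and transient genes stand apart from 0 on the 2 h e7 arrays.

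Among transient genes, those that were higher included regulators of RNA stability, signalling and protein turnover. Elavl1 (probe set 1448151_at) encodes HuR, an RNA-binding protein that stabilizes transcripts with AU-rich elements, many of them from cytokine genes. Its log2 signal was 10.76, 10.3, 10.1 and 10.63 on the 2 h e7 arrays against 9.16, 9.11, 8.97 and 9.18 on the 2 h mock arrays, and 10.01, 9.92, 9.75 and 9.42 on the 4 h e7 arrays against 9.62, 9.76, 9.64 and 10.04 on the 4 h mock arrays. The groups did not overlap at 2 h and overlapped at 4 h. Elavl1 rose 2.53-fold at 2 h (log2 difference 1.34 ± 0.19, limma SE, adjusted p = 0.000134), differed by 0.01 ± 0.19 at 4 h (adjusted p = 0.982), and the contrast was -1.33 ± 0.27 (adjusted p = 0.00706). The mock arrays differed by 0.66 ± 0.19 between 4 h and 2 h (adjusted p = 0.919), which enters this contrast. The second Elavl1 probe set had the same sign and was not called. For probe set 1448151_at the contrast was -1.39 without 4 h e7 arrays 2 and 3 (adjusted p = 0.0328).

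Tank (probe set 1421640_a_at) encodes an adaptor that binds TRAF proteins and restrains NF-kB signalling. It read 9.44, 8.94, 10.03 and 9.75 with e7 against 8.69, 8.53, 8.17 and 9.02 with mock at 2 h, and 8.41, 8.79, 8.55 and 9 with e7 against 9.24, 8.57, 9.16 and 9.1 with mock at 4 h. At 2 h, 3 of 4 e7 arrays lay above all mock arrays, and at 4 h the e7 arrays were not above mock. The contrast was -1.27 ± 0.32 (adjusted p = 0.025) and -1.25 without 4 h e7 arrays 2 and 3 (adjusted p = 0.112). The contrast was also called for Mdm2, the ligase that degrades p53 (-1.27 ± 0.35, adjusted p = 0.0406), for Prcp, a lysosomal carboxypeptidase (-1.15 ± 0.25, adjusted p = 0.00913), for Arntl, a core factor of the circadian clock (-1.09 ± 0.25, adjusted p = 0.0151), and for Atg12, a ubiquitin-like protein of autophagosome formation (-0.83 ± 0.23, adjusted p = 0.0426). These 4 genes were 0.68 to 0.92 above mock at 2 h and between -0.42 and 0.06 at 4 h on the log2 scale. Of these 4 genes, 0 had the contrast called without 4 h e7 arrays 2 and 3, and that of Mdm2 was also not called without 4 h mock array 3 (adjusted p = 0.0778).

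Several immune genes were sorted as transient although their contrast was not called. Cd83, a surface marker of activated antigen-presenting cells, rose by 1.15 ± 0.23 at 2 h (adjusted p = 0.00728) and was 0.2 ± 0.23 at 4 h, with a contrast of -0.96 ± 0.32 (adjusted p = 0.0975). Its difference at 4 h was 0.86 without 4 h e7 arrays 2 and 3 (adjusted p = 0.0253), so its sorting rested on those arrays. Tlr4, the receptor for bacterial lipopolysaccharide, rose by 0.77 ± 0.18 at 2 h (adjusted p = 0.021) against a difference of 0.01 ± 0.18 at 4 h. Nfe2l2, which encodes the antioxidant regulator NRF2, rose by 0.58 ± 0.11 at 2 h (adjusted p = 0.00555) and was 0.2 ± 0.11 at 4 h. Cish, a feedback inhibitor of cytokine receptors, rose by 0.97 ± 0.22 at 2 h (adjusted p = 0.0169), and its difference at 4 h was 0.14 ± 0.22. Contrast values for Tlr4, Nfe2l2 and Cish ran from -0.83 to -0.38 and did not pass the test (adjusted p = 0.097, 0.201 and 0.147). With the 3' to 5' ratio as a covariate, 27 genes in all were called higher at 2 h, against 127 without it. The part of RNA length in the transient rises was not tested.

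Among transient genes that were lower, several encode parts of the translation machinery and of metabolism. Rps19 (probe set 1449243_a_at), a protein of the small ribosomal subunit, read 11.06, 11.59, 11.61 and 11.18 with e7 against 12.11, 12.36, 12.16 and 12.22 with mock at 2 h. At 4 h it read 12.25, 12, 11.28 and 12.22 with e7 against 11.92, 11.93, 11.88 and 11.39 with mock. All 4 e7 arrays lay below mock at 2 h, and 3 of 4 lay above mock at 4 h. Rps19 fell by 0.85 at 2 h (log2 difference -0.85 ± 0.17, adjusted p = 0.00794), and its contrast was 1.01 ± 0.25 (adjusted p = 0.0223) and 1.3 without 4 h e7 arrays 2 and 3 (adjusted p = 0.0118). Pabpc4 encodes a poly(A)-binding protein, and its probe set (1451296_x_at) is of a kind that may share probes with related genes. The Pabpc4 signal fell at 2 h (-0.57 ± 0.15, adjusted p = 0.0371) and rose at 4 h (0.43 ± 0.15, adjusted p = 0.0406), with 4 of 4 e7 arrays below all mock arrays at 2 h and 4 of 4 above them at 4 h. A second Pabpc4 probe set had the same sign and was not called. The contrast for Pabpc4 was 0.99 ± 0.21 (adjusted p = 0.00815), and 1.15 without 4 h e7 arrays 2 and 3 (adjusted p = 0.0169). The 4 h rise of Pabpc4 was not called without 4 h mock array 3 (0.4, adjusted p = 0.0917).

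Khk (probe set 1449062_at), the enzyme that phosphorylates fructose, had a contrast of 1.09 ± 0.27 (adjusted p = 0.0255), and of 1.39 without those arrays (adjusted p = 0.0177). At 2 h it read 8.11, 8.33, 7.94 and 7.87 with e7 against 8.67, 8.97, 8.8 and 8.69 with mock, with no overlap. At 4 h it read 9.23, 8.77, 8.13 and 8.84 with e7 against 8.65, 8.55, 8.41 and 7.88 with mock, with overlap. Echs1, an enzyme of mitochondrial fatty acid oxidation, fell at 2 h (-0.76 ± 0.19, adjusted p = 0.0297) and rose at 4 h (0.54 ± 0.19, adjusted p = 0.0469). Fis1, a mitochondrial fission factor, Ciapin1 and Nfu1, both of iron-sulfur cluster assembly, and Nudt1, which clears oxidized nucleotides, were also called in the contrast, by 0.74 to 1.08. Of Echs1, Fis1, Ciapin1, Nfu1 and Nudt1, 0 were called in the contrast without 4 h e7 arrays 2 and 3, and without 4 h mock array 3 Fis1 and Nudt1 were not called (adjusted p = 0.0835 and 0.0553). Fits with the 3' to 5' ratio as a covariate called 33 genes at 2 h (27 higher and 6 lower), against 218 without it, and the part of RNA length in the other 2 h calls was not tested. All 2 h e7 arrays had higher ratios than the 2 h mock arrays.

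Sustained genes that were higher were led by neutrophil-attracting chemokines. Cxcl2 (probe set 1449984_at), which encodes a ligand of the neutrophil receptor CXCR2, read 12.81, 11.98, 11.52 and 12.04 with e7 against 8.32, 7.91, 7.76 and 7.91 with mock at 2 h, and 13.5, 13.55, 13.87 and 13.29 with e7 against 8.71, 8.04, 13.86 and 7.78 with mock at 4 h. The groups did not overlap at 2 h, and at 4 h mock array 3, the array with high neutrophil markers, lay among the e7 arrays. The difference was 4.12 ± 0.69 at 2 h and 3.95 ± 0.69 at 4 h, and the contrast was -0.16 ± 0.97 (adjusted p = 0.96). Without 4 h mock array 3 the 4 h difference was 5.37 ± 0.42 and the contrast turned to 1.26 ± 0.58 (adjusted p = 0.265).

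Cxcl1 (probe set 1419209_at), another ligand of CXCR2, read 8.53, 7.85, 7.68 and 8.22 with e7 against 5.97, 4.77, 4.62 and 5.35 with mock at 2 h, and 10.64, 10.7, 10.43 and 10.24 with e7 against 5.74, 4.2, 8.6 and 5.55 with mock at 4 h. Groups did not overlap at either time. The mock level was low: 3 of 4 mock arrays at 2 h and 2 of 4 at 4 h had a signal under 50, so the sizes depend on how low signals are treated. The difference was 2.89 ± 0.5 at 2 h and 4.48 ± 0.5 at 4 h, and 2.34 at 2 h and 4.09 at 4 h with signals under 50 set to 50. The contrast was 1.59 ± 0.71 (adjusted p = 0.238). Without 4 h mock array 3 the contrast of Cxcl1 was 2.45 ± 0.55 (adjusted p = 0.0169), a call that this 1 array decided. With 4 h e7 array 3 left out as well it was 2.47 ± 0.58 (adjusted p = 0.033).

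The immediate-early transcription factor Egr1 (probe set 1417065_at) was above mock at both times, by 2.6 ± 0.49 at 2 h and 3.27 ± 0.49 at 4 h, and read 11.84, 10.44, 11.78 and 11.06 on the 4 h e7 arrays against 7.23, 7.13, 10.79 and 6.87 on the 4 h mock arrays. Mock array 3 again lay among the e7 values, and the contrast of Egr1 was 0.67 ± 0.7 with it (adjusted p = 0.69) and 1.6 ± 0.48 without it (adjusted p = 0.0722). Atf3, a stress-induced factor that dampens inflammatory genes, kept nearly the same size (1.39 ± 0.26 at 2 h and 1.41 ± 0.26 at 4 h, contrast 0.02 ± 0.37). Rgs1 (probe set 1417601_at), which limits G-protein signalling below chemokine receptors, read 10.43, 9.95, 9.99 and 10.09 with e7 against 7.28, 8.06, 7.62 and 7.06 with mock at 2 h. At 4 h it read 10.22, 10.32, 10.04 and 10.1 with e7 against 8.08, 7.96, 9.54 and 7.3 with mock. Rgs1 did not overlap between groups at either time, its e7 arrays differed by 0.05 between 4 h and 2 h, and the contrast was -0.66 ± 0.44 (adjusted p = 0.469).

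Single genes of growth and stress signalling were sustained, while most members of their lists were not called at either time. Of 20 genes of stress kinases and growth arrest, 1 was sustained and higher, 1 transient and higher, 2 late and higher, 1 late and lower and 15 not sorted. Of 5 ligands of the epidermal growth factor receptor, 1 was sustained and higher, 1 transient and lower and 3 not sorted. Ereg, 1 of these ligands, read 7.75, 7.05, 6.77 and 7.52 with e7 against 5.62, 5.12, 5.18 and 5.84 with mock at 2 h, and 9.23, 8.82, 8.27 and 8.47 with e7 against 5.37, 5.52, 6.21 and 6.03 with mock at 4 h. Its groups did not overlap at either time, 3 of 4 mock arrays at 2 h and 2 of 4 at 4 h lay under a signal of 50, and the contrast was 1.08 ± 0.48 (adjusted p = 0.233). Tcim, a small positive regulator of the Wnt pathway, differed by 1.86 ± 0.35 at 2 h and 3.14 ± 0.35 at 4 h, with no overlap at either time. Plk2, a stress-responsive kinase, differed by 2.17 ± 0.66 at 2 h (adjusted p = 0.0766) and 4.21 ± 0.66 at 4 h (adjusted p = 9.05e-05), and its signal was under 50 on 4 of 4 mock arrays at 2 h and 3 of 4 at 4 h. With such signals set to 50 its differences were 1.62 at 2 h and 3.27 at 4 h, both called. Without 4 h mock array 3 the 4 h difference of Plk2 was 5.09 ± 0.61. In both of these settings the 2 h difference was under 0.5 of the 4 h difference, so the rule would then sort Plk2 as late. Cflar, a caspase inhibitor and NF-kB target, rose by 0.81 ± 0.18 at 2 h (adjusted p = 0.0169) and 1.34 ± 0.18 at 4 h (adjusted p = 1.72e-05). A p that misses the threshold in these contrasts does not show that the responses at the 2 times were equal.

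**Figure D3:**
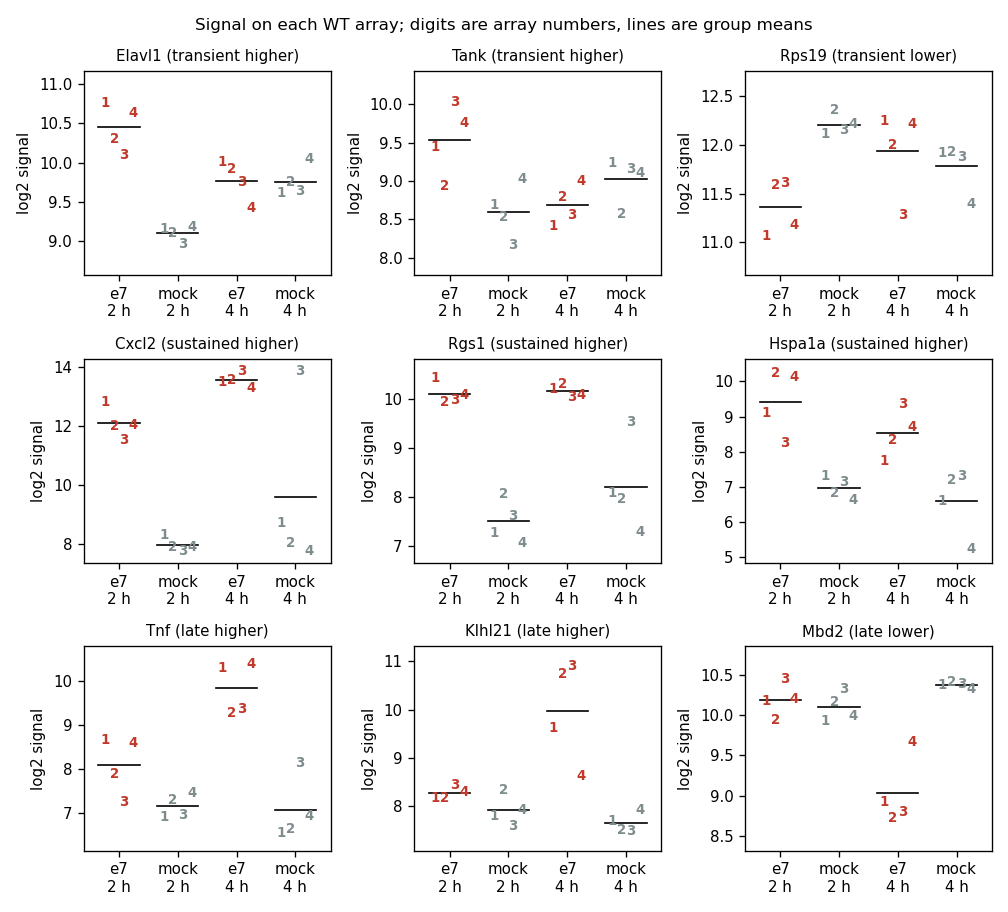
The log2 signal of 9 genes on each of the 16 arrays, with e7 in red and mock in grey, digits for the array number and a line for the group mean. Elavl1 and Rps19 stand apart from mock at 2 h, Tank on 3 of 4 e7 arrays at 2 h, Cxcl2, Rgs1 and Hspa1a at both times apart from 4 h mock array 3 in Cxcl2, and Tnf, Klhl21 and Mbd2 at 4 h.

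A share of the cytosolic chaperones was sustained. Of 17 measured heat shock genes, 2 were called higher and 0 lower at 2 h, 7 were higher and 1 lower at 4 h, 6 were sorted as sustained and higher and 9 were not sorted. Over all genes 1.9% were sustained and higher. The list's median difference was 0.73 at 2 h and 0.62 at 4 h, against -0.02 and -0.08 over all genes. Hspa1a (probe set 1452388_at), the inducible HSP70, read 9.1, 10.24, 8.25 and 10.11 with e7 against 7.32, 6.82, 7.15 and 6.62 with mock at 2 h, and 7.73, 8.32, 9.35 and 8.69 with e7 against 6.6, 7.21, 7.32 and 5.24 with mock at 4 h. Neither time overlapped, and the contrast was -0.51 ± 0.91 (adjusted p = 0.837). Hspa1a has a near-identical copy, Hspa1b, whose transcripts these probes may not tell apart. Chordc1, a partner of HSP90, Dnajb1, which activates HSP70, Hsph1 and Hspa4l, both HSP110 relatives, and Hsp90aa1, the inducible HSP90, differed from mock by 0.44 to 1.08 at 2 h and by 0.54 to 1.66 at 4 h, and their contrasts ran from -0.05 to 0.72. Without 4 h e7 arrays 2 and 3, 0 of the 17 genes were called at 4 h and the median there was 0.42. With the 3' to 5' ratio as a covariate, 0 of the 17 were called at 2 h, where the median was 0.63. In that fit 8 were called higher and 1 lower at 4 h.

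Sustained genes that were lower included ribosomal and proteasome factors. Rps15, a protein of the small ribosomal subunit, differed by -1.35 ± 0.38 at 2 h (adjusted p = 0.0571) and -1.18 ± 0.38 at 4 h (adjusted p = 0.0299). Pomp and Psmg4, both chaperones of proteasome assembly, fell at both times, Pomp by 1.12 at 2 h and 1.04 at 4 h, and Psmg4 by 0.96 at 2 h and 0.97 at 4 h. Ddx49, an RNA helicase, fell by 1.31 at 2 h (adjusted p = 0.0274) and by 1.56 at 4 h (adjusted p = 0.00105). Tk1, thymidine kinase, and Ltc4s, which makes leukotriene C4, fell by 0.92 and 0.95 at 4 h, with adjusted p of 0.0139 and 0.0407, and differed by -0.94 each at 2 h. The 4 h differences of these 6 genes were -0.73 to -0.33 without 4 h e7 arrays 2 and 3 and did not pass the test. The 4 h differences of Rps15 and Ltc4s were -1.12 and -0.95 without 4 h mock array 3 and were not called (adjusted p = 0.0737 and 0.076). The 3' to 5' ratio moved with the 2 h part of these falls, as with that of the rises, and its share in either was not tested.

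Late genes that were higher included Tnf and regulators of transcription and protein turnover. Tnf (probe set 1419607_at), the cytokine TNF, read 8.65, 7.89, 7.24 and 8.59 with e7 against 6.9, 7.3, 6.96 and 7.45 with mock at 2 h, and 10.29, 9.28, 9.37 and 10.39 with e7 against 6.54, 6.62, 8.14 and 6.93 with mock at 4 h. At 2 h, 3 of 4 e7 arrays lay above all mock arrays, and at 4 h all 4 did. The fold over mock was 1.92 at 2 h (adjusted p = 0.161) and 6.85 at 4 h (adjusted p = 3.57e-06), and the contrast was 1.84 ± 0.5 (adjusted p = 0.038). Without 4 h e7 arrays 2 and 3 the contrast was 2.34 (adjusted p = 0.0408), and without 4 h mock array 3 it was 2.2 ± 0.48 (adjusted p = 0.0136). Tnf was highest on 4 h e7 arrays 1 and 4, whereas the late class as a whole was highest on arrays 2 and 3.

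Maff (probe set 1418936_at), a small MAF protein that pairs with NRF2 and AP-1 family factors, read 9.82, 9.83, 9.33 and 9.79 with e7 against 9.39, 9.34, 9.13 and 9.12 with mock at 2 h, and 11.6, 11.41, 11.22 and 10.37 with e7 against 9.07, 8.87, 9.51 and 8.92 with mock at 4 h. All 4 e7 arrays lay above mock at 4 h. The contrast was 1.61 ± 0.29 (adjusted p = 0.00323) and 1.45 without 4 h e7 arrays 2 and 3 (adjusted p = 0.04). Klhl21 (probe set 1428081_at), an adaptor of the cullin 3 ubiquitin ligase, read 8.17, 8.17, 8.44 and 8.3 on the 2 h e7 arrays against 7.79, 8.33, 7.59 and 7.93 on the 2 h mock arrays. At 4 h Klhl21 read 9.62, 10.74, 10.91 and 8.63 with e7 against 7.69, 7.51, 7.48 and 7.93 with mock, with no overlap. Its contrast was 1.96 ± 0.38 (adjusted p = 0.0051) and 1.12 without 4 h e7 arrays 2 and 3 (adjusted p = 0.0763). Gdap10 (probe set 1420342_at), had a contrast of 1.88 ± 0.37 (adjusted p = 0.00547) and 1.23 without those arrays (adjusted p = 0.0871). Procr, the endothelial protein C receptor, had one of 1.42 ± 0.31 (adjusted p = 0.00962) and 1.11 without them (adjusted p = 0.118).

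For part of the late genes the difference at 2 h had the opposite sign, in 199 of the 534 higher and 475 of the 1107 lower. At 2 h, 1 of the 534 and 3 of the 1107 were called, so nearly all of these 2 h differences missed the test. The contrast subtracts the 2 h difference, so genes named for a large contrast favour the opposite sign. Snhg8 (probe set 1435524_at), a long non-coding RNA that hosts small nucleolar RNAs, read 9.3, 9.29, 9.39 and 8.95 with e7 against 10.01, 10.49, 9.78 and 10 with mock at 2 h, and 10.89, 11.46, 11.61 and 10.17 with e7 against 10.24, 9.51, 9.96 and 8.63 with mock at 4 h. All 4 e7 arrays lay below mock at 2 h and 3 of 4 lay above mock at 4 h. Snhg8 had a contrast of 2.28 ± 0.35 (adjusted p = 0.000692), and 1.78 without 4 h e7 arrays 2 and 3 (adjusted p = 0.0174). Its difference was -0.84 ± 0.25 at 2 h (adjusted p = 0.0693) and 1.45 ± 0.25 at 4 h (adjusted p = 0.000183). Mt2 (probe set 1428942_at), a metallothionein that binds zinc and copper, read 10.61, 10.35, 10.26 and 9.82 with e7 against 11.31, 11.87, 11.29 and 10.7 with mock at 2 h, and 12.21, 11.93, 11.64 and 11.33 with e7 against 10.79, 11, 11.42 and 9.73 with mock at 4 h. Mt2 lay below mock on all 4 arrays at 2 h and above mock on 3 of 4 at 4 h, and its contrast was 2.07 ± 0.51 (adjusted p = 0.0237; 2.06 and adjusted p = 0.108 without 4 h e7 arrays 2 and 3).

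Zmat2, a spliceosome protein, differed by -0.57 ± 0.2 at 2 h and 1.07 ± 0.2 at 4 h, and its contrast was 1.64 ± 0.28 (adjusted p = 0.00191) and 1.17 without 4 h e7 arrays 2 and 3 (adjusted p = 0.0408). Eif4b, a translation initiation factor, Cops7b, a subunit of the COP9 signalosome, Gpatch4, a nucleolar protein, Nrp2, a semaphorin and VEGF co-receptor, Notch2, the Notch receptor, and Dynll2, a dynein light chain, were called in the contrast by 1.61 to 2.01. Their differences were between -0.46 and -0.04 at 2 h and between 1.15 and 1.75 at 4 h. Of these 6 genes, 0 were called in the contrast without 4 h e7 arrays 2 and 3, where their values ran from 0.9 to 1.33. Ldha, the lactate dehydrogenase of glycolysis, and Atp6v1h, a subunit of the proton pump of lysosomes, had contrasts of 0.87 ± 0.2 and 0.92 ± 0.2, which were 0.87 and 0.89 without those arrays and then missed the threshold (adjusted p = 0.0823 and 0.0628).

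Late genes that were lower included chromatin and DNA repair factors. Mbd2 (probe set 1417165_at), which binds methylated DNA, read 10.17, 9.94, 10.45 and 10.2 with e7 against 9.93, 10.16, 10.32 and 9.99 with mock at 2 h, and 8.92, 8.72, 8.8 and 9.67 with e7 against 10.37, 10.41, 10.39 and 10.32 with mock at 4 h. The groups overlapped at 2 h and did not overlap at 4 h. Mbd2 had a contrast of -1.43 ± 0.22 (adjusted p = 0.000589) and of -1.17 without 4 h e7 arrays 2 and 3 (adjusted p = 0.0153). Smarcal1 (probe set 1416620_at), an annealing helicase that protects stalled replication forks, read 9.72, 9.59, 9.65 and 9.86 with e7 against 9.44, 9.56, 9.3 and 9.19 with mock at 2 h, and 8.69, 8.1, 8.01 and 9.25 with e7 against 9.6, 9.62, 9.53 and 9.79 with mock at 4 h. It lay above mock on all 4 arrays at 2 h and below mock on all 4 at 4 h. Its contrast was -1.45 ± 0.22 (adjusted p = 0.000589), and -0.99 without those arrays (adjusted p = 0.00774), and its second probe set had the same sign and was not called.

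Cebpd (probe set 1423233_at), a transcription factor of the acute phase response, read 9.88, 9.96, 10.71 and 10.58 with e7 against 10.09, 10.18, 10.2 and 10 with mock at 2 h, and 9, 8.52, 8.52 and 10.11 with e7 against 10.19, 10.85, 10.42 and 10.3 with mock at 4 h. All 4 e7 arrays lay below mock at 4 h. The contrast was -1.57 ± 0.33 (adjusted p = 0.00815) and -1.05 without 4 h e7 arrays 2 and 3 (adjusted p = 0.142), and the contrast of a second Cebpd probe set had the opposite sign. Further late falls with the contrast called were Mta3, of the NuRD chromatin complex (-1.45 ± 0.29), Zfyve26, a protein of lysosome reformation (-1.79 ± 0.33), Atg13, of autophagy initiation (-1.63 ± 0.34), and Med15 and Med8, subunits of the Mediator complex (-1.75 ± 0.43 and -1.49 ± 0.39). Siglecf, a sialic acid receptor typical of these macrophages, fell by 0.67 at 4 h (adjusted p = 0.000447), with a contrast of -0.7 ± 0.18 (adjusted p = 0.0267). The contrasts of these 6 genes without 4 h e7 arrays 2 and 3 were -1.09 to -0.52, with adjusted p from 0.0539 to 0.456. Of the 22 alveolar macrophage markers, 4 were lower and 0 higher at 4 h. Siglecf was the 1 of the 22 called in the contrast, as were 3.18% of all genes. The median contrast of the 22 was -0.0, and 0.22 without 4 h e7 arrays 2 and 3, against -0.07 and 0.01 over all genes.

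Most genes on the lists of inflammatory signalling were called at neither time, and few differences in time passed the test. Among all genes, 1.9% were sustained and higher, 4.31% late and higher and 3.18% called in the contrast. Of 25 chemokine genes, 4 were sustained and higher (Cxcl1, Cxcl2, Cxcl10 and Ccl3), 1 was late and lower, 20 were not sorted, and 0 were called in the contrast, whose median was 0.02 against -0.07 over all genes. Without 4 h mock array 3, 1 of the 25 was called in the contrast, Cxcl1. Of 23 cytokine genes, Tnf was the 1 called in the contrast, and Il1a and Il1b, both forms of interleukin 1, were sustained: Il1b differed by 1.38 ± 0.79 at 2 h (adjusted p = 0.414) and 2.4 ± 0.79 at 4 h (adjusted p = 0.0336), and 19 of the 23 were not sorted. Without 4 h mock array 3 the 4 h differences were 2.05 ± 0.34 for Il1a and 3.83 ± 0.6 for Il1b. The 2 h differences, 0.92 and 1.38, were under 0.5 of these, so the rule would then sort both genes as late. Among 24 genes of the NF-kB pathway and its feedback, 5 were sustained and higher, 1 was late and higher (Icam1, an adhesion molecule, 0.93 ± 0.19 at 4 h), 18 were not sorted and 0 were called in the contrast. Of 28 immediate-early factors, 5 were sustained and higher, 3 late and higher, 1 transient and higher, 2 late and lower and 17 not sorted, and 2 were called in the contrast, Maff upward and Cebpd downward. Myc, a driver of growth, fell by 1.19 at 4 h (adjusted p = 0.0107) and had a contrast of -1.37 ± 0.47 (adjusted p = 0.1). Socs3, a feedback inhibitor of cytokine receptors, rose by 2.62 ± 0.52 at 4 h (adjusted p = 0.000702), and its contrast was 1.46 ± 0.73 (adjusted p = 0.298). The contrast of Socs3 was 2.3 ± 0.59 without 4 h mock array 3 and was then called (adjusted p = 0.039).

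Antioxidant genes under NRF2 fell into all 3 classes, and 19 of 29 were not sorted. Of the 29 measured, 1 was transient and higher (Nfe2l2 itself), 2 were sustained and higher (Txnrd1 and Gsr, reductases of thioredoxin and glutathione) and 4 were late and higher, while 3 were lower. The contrast was called in 1 of 29, Mt2, against 3.18% of all genes, and in 0 without 4 h e7 arrays 2 and 3. Without 4 h mock array 3 it was called in 2 of 29, where that of Slc7a11, the cystine transporter, was 2.68 ± 0.6 (adjusted p = 0.0162), against 1.79 ± 0.76 with all arrays (adjusted p = 0.206). Hmox1, which breaks down haem, differed by 0.38 ± 0.3 at 2 h (adjusted p = 0.59) and rose by 1.66 ± 0.3 at 4 h (adjusted p = 0.00036), with a contrast of 1.27 ± 0.43 (adjusted p = 0.0979). Srxn1, which repairs oxidized peroxiredoxins, differed by 0.55 ± 0.3 at 2 h and rose by 1.39 ± 0.3 at 4 h (adjusted p = 0.00167). With 4 h e7 arrays 2 and 3 left out, Hmox1 was at 1.78 (adjusted p = 0.0151) and Srxn1 at 1.88 (adjusted p = 0.00411) at 4 h. Of 8 subunits of the NADPH oxidase measured, 3 were late and lower (Cyba, Ncf4 and Rac2, by 0.98 to 1.13) and 1 was late and higher, where 8.93% of all genes were late and lower, and 0 were called at 4 h without 4 h e7 arrays 2 and 3.

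Respiratory chain and proteasome subunits included genes that were lower at 4 h, as did 11.4% of all genes. Of 40 respiratory chain subunits, 19 were called lower and 2 higher at 4 h, and their median difference was -0.28 at 2 h and -0.36 at 4 h. Among the 40, 15 were sorted as late and lower and 5 as sustained and lower, among them Sdhb of complex II (-1.21 ± 0.21 at 4 h) and Uqcrc2 of complex III (-0.77 ± 0.15 at 4 h). In the contrast 1 of the 40 was called, Ndufa9 of complex I (0.77 ± 0.21, adjusted p = 0.0368), and upward. Of 24 genes of glycolysis and hypoxia, 2 were lower and 3 higher at 4 h. Of 31 proteasome subunits, 11 were lower and 3 higher at 4 h, and the contrast was called upward in Psmb7, of the catalytic core (1.27 ± 0.3, adjusted p = 0.0166), and Psmd1, of the regulatory cap (0.76 ± 0.2, adjusted p = 0.0304). Of 36 genes of the cell cycle and replication, 9 were lower and 0 higher at 4 h. The contrast was called in Gmnn, an inhibitor of replication licensing (-1.1 ± 0.31, adjusted p = 0.0435), and Mcm2, of the replicative helicase, was at -1.31 ± 0.44 (adjusted p = 0.0969). The contrasts of Ndufa9 and Gmnn were not called without 4 h mock array 3 (adjusted p = 0.068 and 0.0576). Without 4 h e7 arrays 2 and 3, 1 of the 40 respiratory chain subunits, 0 of the 31 proteasome subunits and 0 of the 36 cell cycle genes were called lower at 4 h, and 63 of all 12393 genes were.

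**Figure D4:**
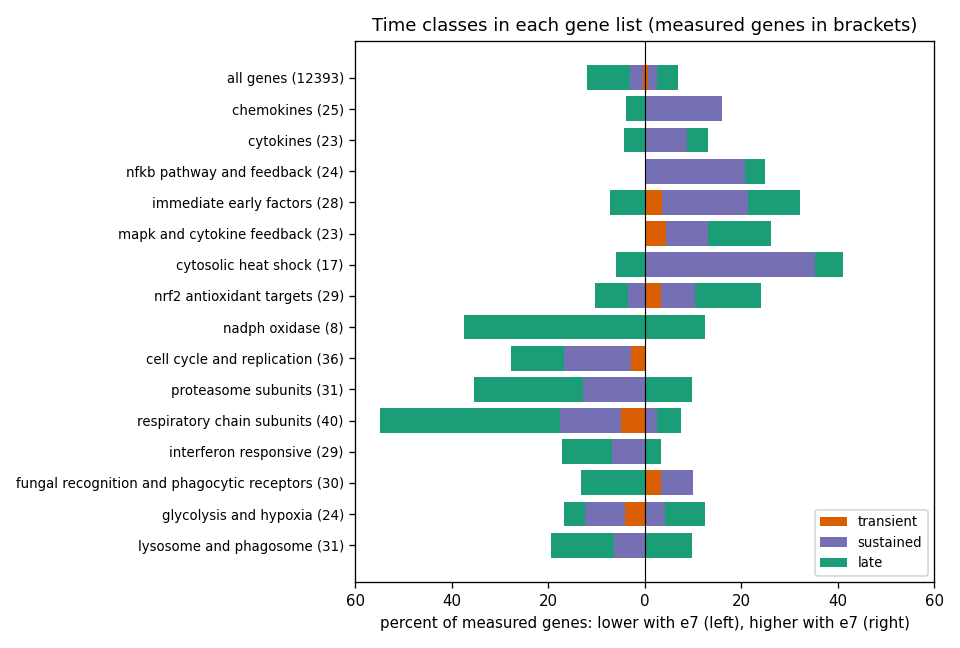
The percent of measured genes in each list that fell into each time class, with genes lower with e7 to the left and higher with e7 to the right of 0. The number in brackets is the number of measured genes. Heat shock genes reach farthest in sustained rises (6 of 17) and respiratory chain subunits farthest in late falls (15 of 40) among the lists with over 10 genes.

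Markers of other cell types were set beside these results. Of the 20 neutrophil markers, 0 were called in the contrast and 2 were lower at 4 h, and their median contrast was 0.27 with all arrays and -0.54 without 4 h e7 arrays 2 and 3. Without 4 h mock array 3, the array with the highest neutrophil signal, it was 0.71 and 1 marker was called higher in the contrast. Of 16 monocyte and dendritic markers 0 were called in the contrast. Their summed signal was 12057 to 14236 on the 2 h e7 arrays against 9991 to 11977 on the 2 h mock arrays, with no overlap. At 4 h it was 10306 to 13237 with e7 against 10167 to 14201 with mock. The summed signal of T and NK cell markers was 3838 to 4815 on the 2 h e7 arrays against 5382 to 6589 on the 2 h mock arrays, and 3529 to 5352 on the 4 h e7 arrays against 4333 to 5913 on the 4 h mock arrays. B cell markers summed to 1782 to 3420 on the 4 h e7 arrays against 2992 to 3925 on the 4 h mock arrays, and lung epithelium markers to 7644 to 14535 against 11329 to 17811. Their part in the results was not tested.

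Promoters of the top genes of each class that rose are shown because chemokine and cytokine genes are textbook targets of NF-kB, so that the letters just before their starts can be compared. Each is the 250 bases before an annotated transcription start from RefSeq, build GRCm38.p6, read 5′ to 3′ along the gene, and capitals mark a motif. They lie at chr8:4325101-4325350 on the minus strand, chr2:61578307-61578556 on the plus strand, chr5:90903649-90903898 on the plus strand, chr5:90890995-90891244 on the plus strand, chr17:35202008-35202257 on the minus strand, and chr12:32823866-32824115 on the plus strand. For Tank, with 4 annotated starts, the most upstream one was taken.
Elavl1: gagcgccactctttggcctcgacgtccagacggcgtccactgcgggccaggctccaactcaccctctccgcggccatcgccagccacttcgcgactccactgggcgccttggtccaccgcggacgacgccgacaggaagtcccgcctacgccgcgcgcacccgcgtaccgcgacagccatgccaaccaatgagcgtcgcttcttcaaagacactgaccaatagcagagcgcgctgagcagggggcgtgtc
Tank: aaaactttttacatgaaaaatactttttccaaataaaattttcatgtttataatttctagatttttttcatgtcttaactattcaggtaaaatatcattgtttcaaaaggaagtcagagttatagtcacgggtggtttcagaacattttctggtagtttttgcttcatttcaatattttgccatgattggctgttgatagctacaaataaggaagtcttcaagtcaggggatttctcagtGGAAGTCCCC
Cxcl2: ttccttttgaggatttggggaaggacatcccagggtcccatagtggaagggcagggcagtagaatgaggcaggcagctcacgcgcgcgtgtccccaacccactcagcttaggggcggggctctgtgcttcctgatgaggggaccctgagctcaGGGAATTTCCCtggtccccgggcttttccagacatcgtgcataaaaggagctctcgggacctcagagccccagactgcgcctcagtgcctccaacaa
Cxcl1: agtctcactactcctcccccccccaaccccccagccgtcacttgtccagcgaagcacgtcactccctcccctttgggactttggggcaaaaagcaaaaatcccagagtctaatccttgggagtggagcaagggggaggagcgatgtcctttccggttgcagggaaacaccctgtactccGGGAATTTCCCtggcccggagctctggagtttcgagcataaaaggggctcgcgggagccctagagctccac
Tnf: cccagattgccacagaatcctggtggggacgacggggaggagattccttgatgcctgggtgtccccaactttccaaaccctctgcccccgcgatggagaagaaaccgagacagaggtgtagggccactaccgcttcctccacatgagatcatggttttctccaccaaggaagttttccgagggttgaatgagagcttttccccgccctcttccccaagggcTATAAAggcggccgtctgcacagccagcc
Gdap10: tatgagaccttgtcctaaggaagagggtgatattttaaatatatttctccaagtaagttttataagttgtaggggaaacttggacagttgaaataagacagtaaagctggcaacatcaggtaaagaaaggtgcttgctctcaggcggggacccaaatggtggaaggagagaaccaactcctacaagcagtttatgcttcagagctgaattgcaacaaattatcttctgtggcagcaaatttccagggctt
The motifs searched were the NF-kB consensus (kappa B site), the AP-1 site TGANTCA, the cyclic AMP response element TGACGTCA, the antioxidant response element TGACNNNGC and the serum response element (CArG box), all on both strands, and the TATA box TATAAA on the gene's own strand. The transient gene Tank held an NF-kB match 10 bases before its start. Cxcl2 held one 97 bases and Cxcl1 one 71 bases before the start, where matches on both strands overlapped in the same letters. In the Tnf window only a TATA match was found, 29 bases before the start, and the windows of Elavl1 and Gdap10 held none of the 6 motifs. Of 32851 promoter windows of this length, 7.25% held an NF-kB match and 7.59% a TATA match. Of promoters with 1 window per gene, an NF-kB match was held by 5 of 63 in transient genes that were higher, by 26 of 199 in sustained genes that were higher (13.1%) and by 38 of 446 in late genes that were higher (8.52%), against 840 of 9887 among all tested genes (8.5%). A match describes these letters and is no evidence that a factor bound there.

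The lower dose and the other genotype were set beside the same genes. The e6 and e7 contrasts share their mock arrays, so they are given side by side. The e6 contrast itself called 0 genes with limma, and 732 probe sets had an unadjusted p under 0.05. At 4 h, 2 genes were called with e6 against mock, both higher (0.0161%). In the direct test, where the mock arrays cancel, the change between times differed between e7 and e6 conidia in 236 genes (1.9%), 89 higher (0.718%) and 147 lower (1.19%). Tnf had 1.84 with e7 and 1.98 with e6, with a difference of -0.14 ± 0.5 (adjusted p = 0.937). For Ereg the values were 1.08 with e7 and 1.98 with e6, and for Plk2 2.04 with e7 and 2.24 with e6. Snhg8 had 2.28 with e7 and 0.31 with e6 (difference 1.98 ± 0.35, adjusted p = 0.00484). Smarcal1 had -1.45 with e7 and -0.23 with e6 (difference -1.23 ± 0.22, adjusted p = 0.00479), and Mbd2 had -1.43 with e7 and -0.33 with e6 (difference -1.1 ± 0.22, adjusted p = 0.0094). The dose difference was called in 11 probe sets without 4 h e7 arrays 2 and 3, against 350 with them.

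In KO mice 1058 genes were called with e7 against mock at 2 h (8.54%), 729 higher (5.88%) and 329 lower (2.65%), and 1 gene was called at 4 h (0.00807%), lower. The time contrast of KO mice was called in 187 genes (1.51%), 35 higher (0.282%) and 152 lower (1.23%). Between genotypes the change of the e7 response in time differed in 52 genes (0.42%), 39 higher (0.315%) and 13 lower (0.105%) in WT than in KO. The median of this difference over all genes was 0.18, and single genes are read against it. Klhl21 had a contrast of 1.96 in WT and -0.49 in KO (difference 2.46 ± 0.58, adjusted p = 0.0365), and Smarcal1 -1.45 in WT and 0.02 in KO (difference -1.48 ± 0.33, adjusted p = 0.0277). Synpo, an actin-binding protein, had 1.66 in WT and -1.44 in KO (difference 3.1 ± 0.57, adjusted p = 0.0102). Tnf had 1.84 in WT and 0.28 in KO, a difference of 1.55 ± 0.76 that did not pass the test (adjusted p = 0.283). Over the late genes that were higher, the median e7 minus mock difference in WT was 0.1 at 2 h and 0.83 at 4 h, against 0.23 at 2 h and 0.07 at 4 h in KO. Over all genes the KO medians were 0.23 at 2 h and -0.05 at 4 h, and the median KO time contrast was -0.23. The KO values and the KO counts of higher and lower genes are read against these medians. KO arrays were not used to choose these genes, but the WT values were, so this comparison of medians describes and does not test.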

How the data were processed

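RNA from alveolar macrophages was amplified in 2 cycles, labelled and hybridised to Affymetrix mouse arrays, per the labels' protocols. The deposited values are intensities, 1 per probe set and array, in 22690 probe sets on 51 arrays. GCOS and RMA are named in the submitters' processing notes without a role. The values are linear and every array has the same trimmed mean (500.2 with 2% left out at each end), as the files show. For arrays, their number limits the precision.

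Here log2 was taken with no pseudocount or filter, 64 control probe sets were left out, and limma 3.58.1 (R 4.3.3) was fitted to all 51 arrays in 15 groups, with Benjamini-Hochberg adjustment over 22626 probe sets and calls at an adjusted p under 0.05. The errors given are limma standard errors, and each WT group had 4 arrays. A gene was read from the probe set with the highest mean signal among those with 1 symbol (20380 had 1 symbol, 691 several and 1555 none), giving 12393 genes.

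Genes named are the 15 most extreme called in each direction of the contrast, the 10 leading genes of each class and direction (both with a mean signal of at least 200 in 1 of the 4 groups), members of gene lists, and Cybb. The members and lists were chosen with earlier results of these data known. The fitting was tested on simulated data. Alternatives were quantile normalization, filters, floors, array weights, the 3' to 5' ratio, a replicate block, fewer arrays and other class ratios.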

Additional observations from a re-analysis of the deposited data

Results flagged for a closer look

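In 9 of 132 groups of 4 arrays checked, 1 array lay far from the other 3, where chance gives about 1 in 20. On 4 h mock array 3, Cxcl2 read 13.86 against 7.78 to 8.71 on the other arrays of its group, Egr1 read 10.79 against 6.87 to 7.23, and the mean log2 signal of neutrophil markers was 8.63 against 4.88 to 5.28. Neutrophil markers averaged 7.2 on 4 h e7 array 3, against 5.2 to 5.46 on the other 4 h e7 arrays. Maff read 9.33 on 2 h e7 array 3, against 9.79 to 9.83 on the rest of that group. Rps19 read 11.39 on 4 h mock array 4, against 11.88 to 11.93. On 2 h mock array 4, Plk2 read 3.71 against 5.52 to 5.57, the log2 3' to 5' ratio was 0.93 against 1.41 to 1.47, and the mean of B cell markers was 4.36 against 4.59 to 4.63.

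The response to e7 conidia differed between 4 h and 2 h in 617 probe sets, by limma with Benjamini-Hochberg adjustment. Its change in time differed between WT and KO in 128 probe sets, among them those of Klhl21 (2.46, adjusted p = 0.0365), Smarcal1 (-1.48, adjusted p = 0.0277) and Synpo (3.1, adjusted p = 0.0102). Between e7 and e6 conidia the change in time differed in 350 probe sets. Among the genes considered here, it was more positive with e7 for Klhl21 (1.85, adjusted p = 0.0127), Snhg8 (1.98, adjusted p = 0.00484), Echs1 (1.14, adjusted p = 0.0223), Nfu1 (0.93, adjusted p = 0.015), Nudt1 (0.99, adjusted p = 0.0162), Mcm5 (1.6, adjusted p = 0.026), Fam214b (1.6, adjusted p = 0.0416) and Cops7b (2.04, adjusted p = 0.015). The same held for Zmat2 (1.57, adjusted p = 0.0055), Eif4b (1.64, adjusted p = 0.0163), Gpatch4 (1.67, adjusted p = 0.0319), Dynll2 (1.74, adjusted p = 0.00794), Ldha (0.95, adjusted p = 0.015), Psmb7 (1.36, adjusted p = 0.0163) and Ndufa9 (0.93, adjusted p = 0.0164). It was more negative with e7 for Tank (-1.21, adjusted p = 0.0399), Mbd2 (-1.1, adjusted p = 0.0094), Smarcal1 (-1.23, adjusted p = 0.00479), Prcp (-0.91, adjusted p = 0.0495), Mta3 (-1.51, adjusted p = 0.00794), Zfyve26 (-1.26, adjusted p = 0.0399), Med8 (-1.57, adjusted p = 0.03) and Siglecf (-0.68, adjusted p = 0.0405).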

How the results depend on the processing

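Counts are of probe sets called by limma, and of genes for the time classes. The time contrast (617) became 1426 with the 3' to 5' ratio as a covariate, 1282 with array weights, 1312 among probe sets with a mean signal of at least 100, 398 after quantile normalization, 181 without array 3 of both 4 h groups, 80 without 4 h e7 arrays 2 and 3, and 0 with only the 16 arrays. The 2 h response (365) became 45 with the covariate, 1342 with weights, 599 with a trend in the spread, 957 above the signal minimum, 612 with signals under 50 set to 50, 583 with the replicate block, 554 without array 3 of both 4 h groups, 792 without 4 h e7 arrays 2 and 3, and 17 with the 16 arrays. With the 16 arrays, without array 3 of both 4 h groups, and without 4 h e7 arrays 2 and 3, the 4 h response (3512) became 515, 1064 and 204, the change between the e7 arrays (3099) became 0, 1196 and 194, and the late class (1641) became 259, 536 and 103. The change between mock arrays (0) became 1 without array 3 of both 4 h groups. The dose difference (350) became 1387 with the covariate, 1081 with weights, 619 with a trend, 1075 above the minimum, 586 with the floor, and 79 and 11 without those arrays. The WT minus KO difference (128) became 947 with weights, 70 above the minimum, 72 after quantile normalization, 387 with the floor, and 83 and 45 without those arrays. Transient genes (126) became 34 with the covariate, 405 with weights, 193 with a trend, 299 above the minimum, 3 with the 16 arrays, 199 with the replicate block, 206 with the floor, and 226 and 343 without those arrays. Sustained genes (554) became 181 with the covariate, 59 with the 16 arrays, 198 and 139 without those arrays, 1054 at a ratio of 0.25 and 192 at 0.75. Leaving out 1 array at a time gave 169 to 2408 for the contrast, with 169 without 4 h e7 array 2, 268 without array 3 and 2408 without array 4. It gave 63 to 610 at 2 h, 1622 to 5303 at 4 h, 1235 to 4996 between the e7 arrays, 0 to 1 between the mock arrays, 30 to 2299 for dose, 91 to 1198 for WT minus KO, 22 to 240 transient, 294 to 668 sustained and 767 to 2672 late genes. The cause of these moves was not tested. Ido1 at 2 h (3.05) became 0.0 with the floor, where its signals lay. Replicate numbers were not used to pair the samples. Correlations between same-numbered arrays ran from -0.422 to 0.378, which cannot show whether arrays were paired. The replicate block called 789 probe sets in the contrast, against 617 without it. Of 51 genes considered here with the contrast called, 10 were called without 4 h e7 arrays 2 and 3.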
